A study of Mus musculus with 52 samples.

Results

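The hypothalamus was compared with the hippocampus in mice that received saline, as the base state of an insulin infusion study. Members were chosen by sample label: all 5 hypothalamic and all 6 hippocampal libraries of the saline group, 11 of the 52 libraries of the series. The mice were male C57BL/6J, a common inbred laboratory strain, and 3 months old, and the labels name no transgene, deletion or other allele in any group. Each had a catheter in a jugular vein and was awake during an infusion of 3 h, with blood glucose checked and glucose given as needed, a procedure called a clamp. The saline group received no insulin (0 mU/kg/min). Both regions of 2 further groups, 12 libraries at 4 mU/kg/min (the low rate) and 11 at 12 mU/kg/min (the high rate), serve here only to see whether the regional difference recurs in other libraries. The nucleus accumbens, the third region of the study, is not used. The labels do not say whether both regions came from the same mice or how the tissue was cut, and they name no animal. The p-values therefore reflect only how far these libraries scatter, and that scatter may be technical in part.

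The hypothalamus regulates feeding, body temperature, stress and reproduction through small groups of neurons that secrete peptides, many of them into the blood or the pituitary stalk. Its neurons are largely GABAergic or use the vesicular glutamate transporter Slc17a6, and they arise from a ventral part of the embryonic forebrain that is marked by its own transcription factors. The hippocampus, a folded sheet of cortex that serves memory, consists mainly of glutamatergic pyramidal and granule neurons that use Slc17a7 and depend on cortical transcription factors. Bulk RNA mixes all cells of a piece of tissue, so fewer cells of a type and less RNA per cell cannot be told apart in any value given here.

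Pmch, Hcrt and Neurod6, the markers by which the labels of the libraries were checked, separated the regions in all 11 libraries. Pmch (chr10:88091072.0-88092375.0, GRCm38) encodes melanin-concentrating hormone, and Hcrt (chr11:100761069.0-100762931.0) encodes the orexins. Both are made by neurons of the lateral hypothalamus that promote feeding, and the orexins also promote wakefulness. Neurod6 (chr6:55677822.0-55681263.0) is a basic helix-loop-helix transcription factor of cortical and hippocampal excitatory neurons. The promoters of these 3 genes and of Neurod2, a close relative of Neurod6, are shown because these genes lie at the ends of the range of regional differences. Each is the 250 bases before the RefSeq start on GRCm38.p6, written 5′ to 3′ on the strand of the gene. Capitals mark TATAAA, a core promoter element, or CAGATG, an E-box of the kind that NEUROD proteins bind. Both were searched on both strands.
Pmch (chr10:88090822-88091071, plus strand): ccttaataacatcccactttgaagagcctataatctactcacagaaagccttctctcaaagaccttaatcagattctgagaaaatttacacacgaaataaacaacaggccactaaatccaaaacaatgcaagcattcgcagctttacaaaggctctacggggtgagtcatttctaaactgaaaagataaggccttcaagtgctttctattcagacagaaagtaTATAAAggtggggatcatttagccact
Hcrt (chr11:100762932-100763181, minus strand): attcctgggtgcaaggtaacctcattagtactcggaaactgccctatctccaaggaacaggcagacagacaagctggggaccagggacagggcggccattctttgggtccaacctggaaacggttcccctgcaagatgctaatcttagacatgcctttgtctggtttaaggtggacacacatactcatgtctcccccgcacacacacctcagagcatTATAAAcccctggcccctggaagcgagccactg
Neurod6 (chr6:55681264-55681513, minus strand): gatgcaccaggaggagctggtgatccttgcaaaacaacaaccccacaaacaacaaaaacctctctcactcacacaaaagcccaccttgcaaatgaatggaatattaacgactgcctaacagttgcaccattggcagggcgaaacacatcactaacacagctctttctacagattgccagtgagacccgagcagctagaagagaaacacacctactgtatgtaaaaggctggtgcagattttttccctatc
Neurod2 (chr11:98329646-98329895, minus strand): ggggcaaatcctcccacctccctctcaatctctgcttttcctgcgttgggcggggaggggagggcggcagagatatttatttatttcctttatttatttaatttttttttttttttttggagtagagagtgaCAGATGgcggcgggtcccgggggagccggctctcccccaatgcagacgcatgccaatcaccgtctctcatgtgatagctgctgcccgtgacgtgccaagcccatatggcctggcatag
TATAAA begins 27 bases before the start in Pmch and 33 bases before it in Hcrt, and was not found in the other windows. CAGATG begins 118 bases before the start in Neurod2 and is not among the letters of the other windows. Among 27025 promoters of the same length, 13.0% held TATAAA and 14.5% held CAGATG. Of the 28 neuropeptide precursor genes tested below, 23 had a promoter in the table, and 5 of these 23 (21.7%) held TATAAA and 6 (26.1%) CAGATG. A match of letters is a description and not a binding site.

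Values are CPM, gene counts put on a common library size after scaling by TMM, edgeR's correction for differences in composition between libraries. Pmch stood at 309.8, 287, 747, 584 and 688 CPM in the 5 hypothalamic libraries, and at 0 to 0.362 CPM (median 0) in the hippocampal ones. Hcrt stood at 174, 250.5, 60.2, 105 and 412 CPM in the hypothalamus, and at 0 to 0.325 CPM (median 0) in the hippocampus. Neurod6 had the opposite pattern, with 0.383, 0.262, 0.448, 0.390 and 1.04 CPM in the hypothalamus and 103 to 189.9 CPM (median 153) in the hippocampus. The regions did not overlap for any of the 3 genes. Within the hypothalamus Hcrt and Pmch did not follow each other: libraries 1 and 2 were the lowest for Pmch, and libraries 3 and 4 the lowest for Hcrt.

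**Figure D1:**
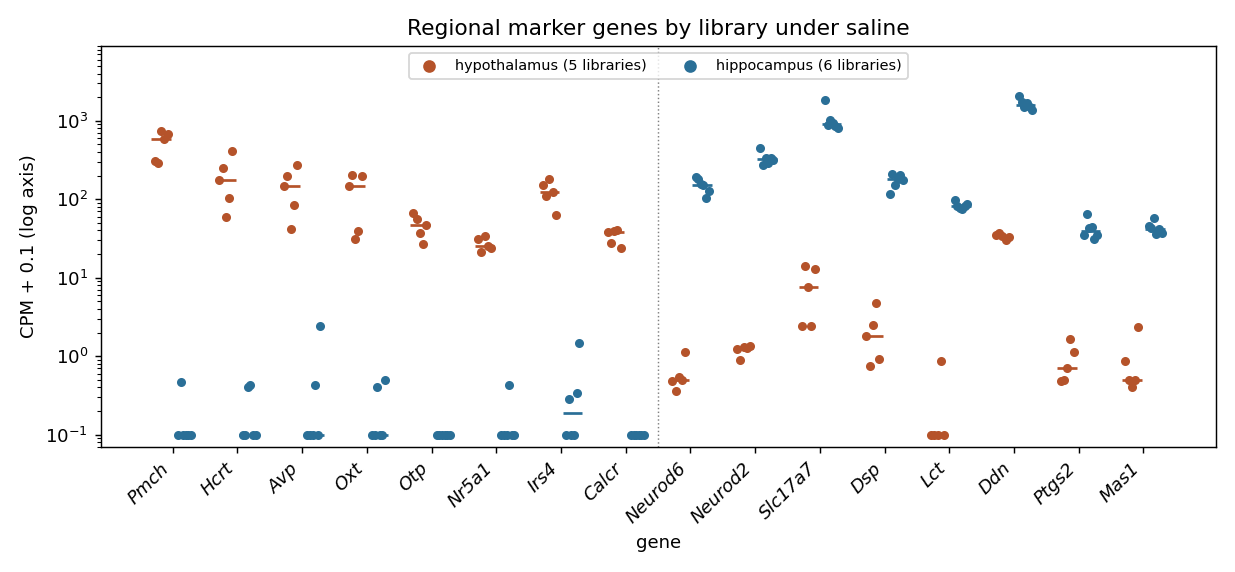
CPM plus 0.1 on a log axis for 16 genes in each saline library, hypothalamus in orange (5 points a gene) and hippocampus in blue (6 points), with bars at the medians. The 8 genes on the left were higher in every hypothalamic library, and the 8 on the right higher in every hippocampal library.

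Across the genome, 5323 of 13580 genes tested (39.2%) differed between the regions at an adjusted p below 0.05 (edgeR quasi-likelihood test, Benjamini-Hochberg over all genes tested, 2-sided). Of these, 2741 (20.2% of all tested) were higher in the hypothalamus and 2582 (19% of all tested) were lower. A test against a 2-fold difference called 1403 genes (10.3%), 683 higher (5.03%) and 720 lower (5.3%). For 3488 genes (25.7%) the ranges of the 2 regions did not overlap. Counts of called list members below are to be set beside these shares of all genes. At the other end, 2912 genes (21.4%) had a 95% interval that lay within 1.5-fold in both directions. Log2 fold changes below are hypothalamus minus hippocampus, with their SE. Over all genes tested their median was 0.05, and 53.0% were above 0. Scaling by library totals alone moved the median of all genes up by 0.17 and called 3945 genes higher and 1958 lower, so the balance between directions changed with the scaling. Numbers in the library titles fall into 3 ranges, which may mark batches. Within the highest range, 3 libraries against 3, 2747 genes were called, and with the range as a batch term 4604 were. Within the lowest, 3926 were called, but it holds 2 hypothalamic libraries and 1 hippocampal one, so its spread rests on the 2. Within the ranges the numbers form shorter runs, of which 4 hold both regions, and with the run as a batch term 3797 genes were called and 1171 were past 2-fold. The middle range held hippocampal libraries only. Total counts were 2453412 to 7144772 per library. The first principal component held 64.4% of the variance and separated the regions. The second (17.4%) went with the libraries' lean to GC-rich and to short transcripts, which were not told apart. The GC lean was strongest in hypothalamic libraries 1, 2 and 5 and hippocampal library 1. The same libraries leaned most to short transcripts, with length correlations of -0.21, -0.36, -0.51 and -0.35. Hypothalamic library 1, with a GC lean of 0.64, stood at -1.4 on this component, and library 5, with 0.42, at -47.6.

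Peptides, receptors and transcription factors stood among the 15 genes with the largest fitted difference on the hypothalamic side, and cortical transcription factors, receptors and a vesicular transporter among the 15 on the hippocampal side (called, not overlapping, and at least 10 CPM on average in the higher region). Where the lower region held 1 to 3 counts in all its libraries together, the ratio of summed CPM is given with its counting interval. Where it held none, the ratio is a lower bound computed with 3 counts over the group. Pmch was 6224-fold (95% counting interval 1723 to 51401) higher in the hypothalamus, Hcrt 2503-fold (95% counting interval 692 to 20669.8), and the homeobox gene Otp, which specifies peptide neurons, at least 402-fold. The orphan GTPase-activating protein gene Arhgap36 had a hypothalamic mean of 176 ± 32.7 CPM (SD, n = 5) and a hippocampal mean of 0.915 ± 0.452 CPM (SD, n = 6) (log2 fold change 7.47, SE 0.25, adjusted p = 4.86e-11). In the other direction Lct, lactase, was 1121-fold (95% counting interval 309.8 to 9259) higher in the hippocampus, at 75.1 to 97.1 CPM. Slc9a4, a sodium-proton exchanger, was 506-fold (95% counting interval 90.3 to 20011) higher there. Neurod2 stood at 0.787 to 1.25 CPM in the hypothalamus and 275 to 453 CPM in the hippocampus (log2 fold change -8.23, SE 0.22, adjusted p = 1.23e-11). Further hippocampal genes among the 15 were Mas1, a receptor of the angiotensin system (-5.73 ± 0.36), Smoc2, a matrix protein (-5.45 ± 0.31), and Adra1d, an alpha-1 adrenoceptor (-5.44 ± 0.42).

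Peptides that control feeding were higher in the hypothalamus for each of the 12 precursors that passed the filter on low counts, of 16 listed. The other 4 were too low to test. Of the 12, 10 passed the test against 2-fold, where 5.03% of all genes did so in this direction. Those near 0 in the hippocampus, such as Pmch, Hcrt, Pomc and Agrp, passed the filter only through the hypothalamus, which fixed their direction, so nothing is read from the share. The same holds for the genes near 0 in 1 region in the other lists. Gal, galanin, was 258-fold (95% counting interval 71.0 to 2133) higher. Pomc, which gives the satiety peptide alpha-MSH, stood at 21.6, 18.9, 14.2, 10.1 and 30.7 CPM in the hypothalamus and at 0 to 0.904 CPM in the hippocampus. Agrp, its orexigenic counterpart in the arcuate nucleus, ranged over 6.23 to 20.8 CPM in the hypothalamus and 0 to 0.544 CPM in the hippocampus. Cartpt (5.63 ± 0.34) and Tac1, the substance P precursor (3.85 ± 0.27), were also past 2-fold. Npy, which hippocampal interneurons also make, differed far less: it stood at 61.6, 64.9, 45.8, 44.0 and 62.7 CPM against 11.3 to 47.6 CPM (median 25.1), and the regions overlapped (log2 fold change 1.09, SE 0.27, adjusted p = 0.00434).

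Among the neurohypophysial and releasing hormones, Avp, Oxt, Trh and Tac2 were higher in the hypothalamus and Sst was not called. The Tac2 call was lost without the GC-leaning libraries (1.35, adjusted p = 0.414) and with the lean as a model term (1.93, adjusted p = 0.0805). Without those libraries only 3 and 4 of the hypothalamus remain, so a call can also be lost through fewer libraries. Vasopressin mRNA (Avp) stood at 146, 201, 41.5, 85.3 and 272 CPM, and at 0 to 2.34 CPM (median 0) in the hippocampus. Oxytocin mRNA (Oxt) stood at 145, 205, 30.6, 39.3 and 197 CPM and was 1089-fold (95% counting interval 372 to 5282) higher than in the hippocampus. Libraries 3 and 4 were the lowest of the 5 for both, as they were for Hcrt, and library 5 or 2 the highest. Trh, thyrotropin-releasing hormone, was lowest in the same 2 libraries, with values of 84.0, 94.4, 32.1, 29.2 and 61.9 CPM (log2 fold change 7.25, SE 0.51, adjusted p = 4.69e-08). Somatostatin (Sst) is a release-inhibiting hormone in the hypothalamus and an interneuron peptide in the hippocampus. It stood at 40.1 to 201 CPM against 52.8 to 133 CPM (log2 fold change 0.32, SE 0.37, adjusted p = 0.511). The other 5 of 10 listed genes, Crh, Ghrh, Gnrh1, Kiss1 and Ucn3, were not tested.

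Other precursors went in both directions, with 6 higher, 2 lower and 3 not called of 11 tested. Penk, proenkephalin (2.14 ± 0.23), Adcyap1, PACAP (4.05 ± 0.36), and Nxph4, a neurexophilin (4.85 ± 0.51), were higher in the hypothalamus. Cck, the peptide of cortical interneurons and of some pyramidal cells, was higher in the hippocampus, at 101 to 353 CPM (median 138) against 4.28 to 48.4 CPM (log2 fold change -3.09, SE 0.59, adjusted p = 0.000727).

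Of 14 granins and enzymes that cut or modify peptide precursors, 9 were higher in the hypothalamus, 3 lower and 2 not called. Higher calls covered 20.2% of all genes, and lower calls 19%. Secretogranin II (Scg2) stood at 1016, 990.0, 1126, 1023 and 1377 CPM in the hypothalamus and 157 to 223 CPM (median 189) in the hippocampus. All hypothalamic libraries were above all hippocampal ones (log2 fold change 2.56, SE 0.14, adjusted p = 3.24e-09). Resp18, an endocrine granule protein (4.58 ± 0.29), and Pcsk1, the prohormone convertase PC1/3 (2.80 ± 0.25), were past 2-fold. The carboxypeptidase Cpe, which trims nearly all neuropeptides and is abundant in hippocampal pyramidal cells, was lower in the hypothalamus (-0.47 ± 0.14), a call lost without hypothalamic library 1 (-0.42, adjusted p = 0.0526). Pcsk1n, the inhibitor of PC1/3, was called higher, but its 5 hypothalamic values of 764, 1243, 346, 287 and 1792 CPM overlapped the hippocampal range of 149 to 409 CPM. Its 3 highest libraries were the GC-leaning ones, and the log2 fold change without the GC-leaning libraries of both regions was 0.38 (adjusted p = 0.288).

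Of 27 hypothalamic transcription factors tested (37 listed), 20 were higher in the hypothalamus, 2 lower and 5 not called, with a median log2 fold change of 2.33. Higher calls covered 20.2% of all genes. Otp stood at 67.6, 55.2, 37.5, 26.5 and 47.1 CPM, with no count in any hippocampal library. Nr5a1, the steroidogenic factor of the ventromedial nucleus, stood at 30.8, 21.2, 33.4, 25.3 and 24.1 CPM and was 665-fold (95% counting interval 119 to 26313) higher. All 5 libraries lay within 21.2 to 33.4 CPM. Nkx2-1, which patterns the ventral hypothalamus, was 525-fold (95% counting interval 93.8 to 20754) higher, Fezf1 at least 148-fold and Sim1, a factor of the paraventricular nucleus, at least 101-fold. Isl1, of arcuate neurons (7.22 ± 0.46), and Six3 (5.11 ± 0.39) had some hippocampal counts. The list also holds factors that the hippocampus expresses: Dlx1 of GABAergic neurons was called (0.67 ± 0.16), while Meis2 (-0.36 ± 0.21) and Zic1 (0.43 ± 0.59) were not. Zic1 ranged over 8.34 to 137 CPM in the hippocampus and was highest in library 6.

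Receptors for appetite hormones and feeding peptides were higher in the hypothalamus for 11, lower for 5 and not called for 6 of 22 tested. Among all genes 20.2% were higher and 19% lower. Calcr, the calcitonin and amylin receptor, stood at 37.9, 27.7, 38.8, 40.1 and 24.1 CPM with no hippocampal count, at least 270.5-fold higher. Cckar, the cholecystokinin A receptor, was at least 64.9-fold higher, likewise with no hippocampal count. Mc3r, a melanocortin receptor (5.48 ± 0.50), and Ghsr, the ghrelin receptor (2.97 ± 0.47), were past 2-fold. By contrast, Mc4r, the melanocortin receptor best known for body weight, was lower in the hypothalamus, at 4.28 to 7.08 CPM against 7.15 to 12.5 CPM (log2 fold change -0.88, SE 0.21, adjusted p = 0.00431). The NPY receptors Npy1r (-1.16 ± 0.19) and Npy2r (-1.33 ± 0.17) were lower as well. Lepr, the leptin receptor, was not called (0.49 ± 0.50). It ranged over 2.08 to 6.87 CPM in the hypothalamus and 0.904 to 8.20 CPM in the hippocampus, where the 2 libraries richest in choroid plexus genes, 4 and 6, were the highest. Without the 3 hippocampal libraries above 100 CPM of Ttr, a choroid plexus gene, its log2 fold change was 1.47 (adjusted p = 0.0221). That exclusion was chosen after seeing the data and takes out libraries 4 and 6. Lepr was not called in 26 of the 27 alternatives, and the part of choroid plexus in its values was not tested. Among 24 other peptide and hormone receptors, 16 were higher, 6 lower and 2 not called, with Tacr3, the neurokinin B receptor, among the largest (4.70 ± 0.37). Adcyap1r1, the PACAP receptor, was the most abundant of this list and was higher too (0.88 ± 0.13).

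Of 15 listed genes for the synthesis and transport of monoamines and acetylcholine, 8 were tested, and 7 of these were higher in the hypothalamus. Higher calls covered 20.2% of all genes. Th and Hdc, near 0 in the hippocampus, passed the filter only through the hypothalamus, so nothing is read from the share. Th, tyrosine hydroxylase of dopamine neurons, stood at 37.1, 35.9, 32.8, 32.3 and 43.0 CPM against 0 to 0.586 CPM (log2 fold change 7.31, SE 0.36, adjusted p = 1.66e-09). Hdc, the histamine-forming enzyme of the tuberomammillary nucleus, stood at 55.0 to 77.8 CPM against 0.544 to 1.95 CPM (5.76 ± 0.26). The vesicular monoamine transporter Slc18a2 (2.74 ± 0.25) and the decarboxylase Ddc (2.28 ± 0.24) were past 2-fold. Monoamine receptors were called in both directions, with 9 higher, 9 lower and 7 not called. Htr2c (1.68 ± 0.35) and the histamine autoreceptor Hrh3 (1.84 ± 0.27) were higher, whereas Adra1d and the serotonin receptor Htr1a (-1.20 ± 0.16) were lower. In the nuclear receptor list, with 8 higher, 6 lower and 12 not called, the mineralocorticoid receptor Nr3c2 was far lower in the hypothalamus (15.4 to 32.7 CPM against 238 to 296 CPM, -3.47 ± 0.18). Rxrg, a retinoid X receptor, was higher (4.75 ± 0.40), as was the estrogen receptor Esr1 (2.55 ± 0.29).

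**Figure D2:**
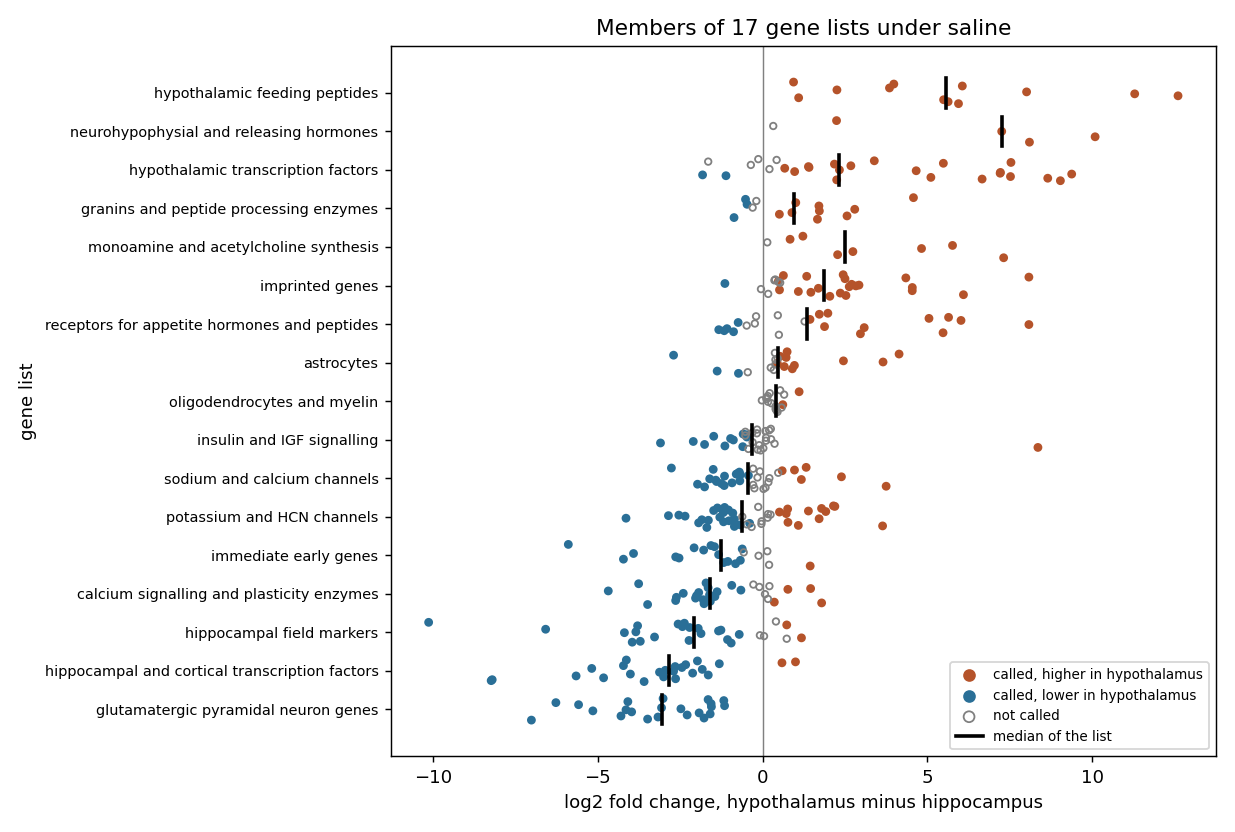
Log2 fold change of each tested member of 17 gene lists, filled where called (orange higher, blue lower in the hypothalamus) and open where not, with the median of each list as a black bar. Genes with 3 or fewer counts in a region are placed at their ratio or bound. Medians run from 7.25 for the neurohypophysial and releasing hormones to -3.04 for the pyramidal neuron genes.

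On the hippocampal side, 22 of 24 hippocampal and cortical transcription factors were lower in the hypothalamus, 21 of them past 2-fold against 5.3% of all genes, and 2 (Id4, 0.59 ± 0.14, and Cux2, 1.00 ± 0.16) were higher. Neurod2 and Neurod6 had the largest differences. Bhlhe22 (-5.18 ± 0.17), Zbtb18 (-4.13 ± 0.17) and Fezf2 (-2.95 ± 0.36) were lower as well. Tcf4 (-2.33 ± 0.23) and Zbtb20 (-1.65 ± 0.25), abundant in both regions, differed less, and Prox1, the granule cell factor of the dentate gyrus, stood at 36.6 to 75.2 CPM against 148 to 483 CPM (-2.64 ± 0.28).

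Markers of single hippocampal fields were lower in the hypothalamus for 20, higher for 2 and not called for 4 of 26. Lct and Dsp, desmoplakin of dentate granule cells (-6.58 ± 0.36), separated the regions most. Nptx1, a neuronal pentraxin, stood at 109 to 212 CPM against 911 to 1202 CPM (-2.56 ± 0.18). Wfs1, a CA1 marker that other brain regions also express, differed by less than 2-fold (-0.95 ± 0.19). Calb1, calbindin of granule and CA1 cells, went the other way, at 240.3, 242, 316, 217 and 307 CPM in the hypothalamus against 124 to 220.2 CPM (median 153) (log2 fold change 0.73, SE 0.15, adjusted p = 0.00156), though not called without the 3 hippocampal libraries above 100 CPM of Ttr (0.55, adjusted p = 0.055).

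All 22 pyramidal neuron genes tested were lower in the hypothalamus, 19 of them past 2-fold, and none overlapped between the regions. Among all genes 19% were lower, 5.3% were lower past 2-fold, and 25.7% did not overlap. Slc17a7, which loads glutamate into vesicles, stood at 2.30, 14.0, 7.46, 2.34 and 12.9 CPM in the hypothalamus and 821 to 1851 CPM (median 912) in the hippocampus (log2 fold change -7.01, SE 0.47, adjusted p = 3.26e-08). Ddn, dendrin, an mRNA of dendrites, stood at 35.2, 37.2, 34.3, 30.4 and 32.8 CPM against 1363 to 2057 CPM (median 1592). Its spread within each region was small beside the difference (log2 fold change -5.58, SE 0.16, adjusted p = 1.28e-11). Camk2a, the abundant synaptic kinase, stood at 404 to 548 CPM against 4247 to 5651 CPM (-3.49 ± 0.14). Rtn4rl2, a Nogo receptor homologue, was also among the largest (-6.27 ± 0.52).

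The vesicular glutamate transporters split by region, as Slc17a6 was higher in the hypothalamus and Slc17a7 in the hippocampus. Slc17a6 stood at 279, 199, 276, 394 and 282 CPM in the hypothalamus (log2 fold change 2.83, SE 0.52, adjusted p = 0.000524). In the hippocampus it ranged over 5.43 to 107 CPM (median 30.7) and was highest in library 6, which also held the most Tcf7l2, a thalamic and habenular factor (82.0 CPM, against 7.84 to 33.8 in the other 5). Of 8 GABA synthesis and transport genes, 4 were higher in the hypothalamus. Slc32a1, the vesicular GABA transporter (1.64 ± 0.29), and Gad2, one of the GABA-forming enzymes (1.25 ± 0.15), were called. Gad1, the other, stood at 324 to 389.9 CPM against 284 to 403 CPM, with a 95% interval of -0.22 to 0.30 for the log2 fold change, inside 1.5-fold. Slc6a11, the GABA transporter of astrocytes, differed most (2.45 ± 0.17). Interneuron markers were lower for 8 and higher for 4 of 15. Calb2, calretinin (3.91 ± 0.55), was higher in the hypothalamus, and Cnr1, the cannabinoid receptor of cholecystokinin interneurons, was lower (-0.96 ± 0.23).

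Within each class of transmitter receptor, subunits were called in both directions. Of 16 GABA receptor subunits, 5 were higher in the hypothalamus, 5 lower and 6 not called. Gabrq and Gabre, the theta and epsilon subunits, were at or near 0 in the hippocampus: Gabrq stood at 144, 108, 195, 159 and 77.9 CPM against 0 to 3.12 CPM (7.38 ± 0.55), and Gabre at 33.0 to 54.0 CPM against 0 to 0.781 CPM (7.13 ± 0.40). Gabra5, an extrasynaptic subunit of pyramidal cells, was lower (-1.64 ± 0.17). Of 17 ionotropic glutamate receptor subunits, 6 were higher and 8 lower. Among the NMDA receptor subunits, Grin2a (-4.30 ± 0.21) and Grin2b (-2.29 ± 0.16) were lower and Grin2d was higher, at 64.7, 72.3, 39.1, 39.7 and 44.0 CPM against 8.52 to 16.0 CPM (median 10.7) (2.18 ± 0.22). Among AMPA receptor subunits, Gria1 (-1.59 ± 0.12) and Gria2 (-1.35 ± 0.17) were lower and Gria4 higher (1.19 ± 0.17). The muscarinic receptor Chrm1 was lower (-4.15 ± 0.14), and the glycine receptor subunit Glra1 higher (5.22 ± 0.51).

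**Figure D3:**
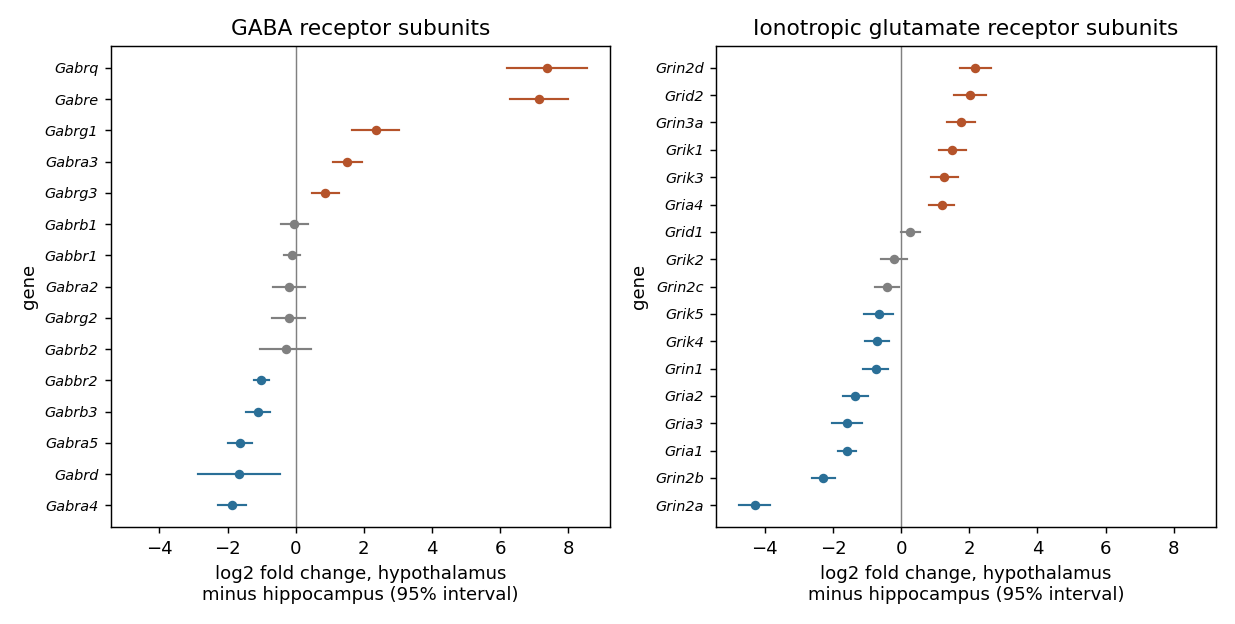
Log2 fold change with its 95% interval for 15 of the 16 GABA receptor subunits (left) and 17 ionotropic glutamate receptor subunits (right), orange where called higher in the hypothalamus, blue where called lower, grey where not called. Gabrq and Gabre stand apart at 7.38 and 7.13, and Grin2a is the lowest at -4.30.

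Of 43 potassium and HCN channel genes, 22 were lower in the hypothalamus, 12 higher and 9 not called. Of 33 sodium and calcium channel genes, 17 were lower, 6 higher and 10 not called. Lower calls covered 19% of all genes, and higher calls 20.2%. Kcnh3, a forebrain potassium channel (-4.14 ± 0.24), and Scn8a, the main sodium channel of axons (-1.76 ± 0.13), were lower. Kcnq3, a subunit of the M-current channel, was lower (-1.64 ± 0.16). Kcna5 (3.64 ± 0.32) and Scn9a, a sodium channel best known from sensory neurons (3.75 ± 0.33), were higher in the hypothalamus.

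Enzymes of calcium signalling and synaptic plasticity were lower in the hypothalamus for 19 of 28, with 4 higher and 5 not called. Past 2-fold were 17 of the 19. Among all genes 19% were lower and 5.3% were lower past 2-fold. Adcy1, a calcium-stimulated adenylate cyclase, stood at 89.6, 109, 73.8, 133 and 96.5 CPM against 1949 to 3063 CPM (median 2584) (log2 fold change -4.68, SE 0.19, adjusted p = 2.66e-10). Rasgrp1, a calcium-dependent Ras activator (-3.76 ± 0.19), and Ppp3ca, the catalytic subunit of calcineurin (-2.61 ± 0.16), were past 2-fold. Prkcd (0.16 ± 0.48) was not called and spread widely in the hypothalamus, from 24.9 to 169.8 CPM, highest in libraries 2 and 5, where Tcf7l2 was highest too.

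Immediate early genes, which neurons switch on with activity, were lower in the hypothalamus for 15, higher for 1 and not called for 4 of 20. Lower calls covered 19% of all genes. Ptgs2, cyclooxygenase 2, stood at 0.383, 0.393, 0.597, 1.56 and 1.04 CPM against 31.2 to 65.1 CPM (median 39.0) (log2 fold change -5.89, SE 0.33, adjusted p = 5.88e-09). Egr3 (-4.22 ± 0.41), Nr4a3 (-3.91 ± 0.16) and Homer1 (-2.08 ± 0.17) were past 2-fold. Egr1 was called lower (-0.67 ± 0.20), but not without the GC-leaning libraries (-0.33, adjusted p = 0.241) or without the 3 hippocampal libraries above 100 CPM of Ttr (-0.60, adjusted p = 0.0791). Fos was higher in the hypothalamus, at 7.08, 22.6, 17.3, 17.5 and 23.9 CPM in the hypothalamus against 3.01 to 8.79 CPM (median 6.69) (log2 fold change 1.44, SE 0.31, adjusted p = 0.00185). Neurotrophin genes were mixed, with 6 higher, 5 lower and 11 not called: Bdnf was lower (-1.46 ± 0.17), Ntf3 was 73.9-fold (95% counting interval 20.1 to 616) higher in the hippocampus, and Ret, the GDNF receptor kinase, was higher in the hypothalamus (3.43 ± 0.29).

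Imprinted genes, expressed from the copy of 1 parent, were higher in the hypothalamus for 21 of 28 tested, with 17 past 2-fold, 1 lower and 6 not called. The median log2 fold change of the 28 was 1.87. Among all genes 20.2% were higher and 5.03% were higher past 2-fold. Magel2, a gene of the Prader-Willi region, stood at 86.5, 66.5, 63.6, 44.0 and 51.1 CPM against 0 to 2.15 CPM (median 0.754) (log2 fold change 6.09, SE 0.40, adjusted p = 2.8e-08). Nap1l5 stood at 1163, 1279, 1653, 1935 and 1487 CPM against 182 to 332 CPM (median 291), with no overlap (2.45 ± 0.18). Peg3 (2.04 ± 0.22), Impact (1.69 ± 0.20) and Peg10 (4.54 ± 0.27) were past 2-fold as well. Igf2, which in brain comes largely from choroid plexus and meninges, was lower in the hypothalamus and overlapped (11.3 to 21.6 CPM against 14.5 to 85.5 CPM, log2 fold change -1.14, SE 0.42, adjusted p = 0.0424). Its highest hippocampal values were in libraries 4 and 6, the richest in choroid plexus genes, and without the 3 libraries above 100 CPM of Ttr its log2 fold change was -0.51 (adjusted p = 0.294). The call also ended on leaving out hypothalamic library 1, 2 or 5 or hippocampal library 4, 5 or 6 alone. The part of choroid plexus in the Igf2 values was not tested. Several of these genes overlap other transcripts of their cluster, so their single values are uncertain where reads are shared.

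Genes for axon guidance and adhesion were called in both directions. Of 49 guidance genes, 22 were lower in the hypothalamus and 15 higher, and of 41 adhesion genes 15 were lower and 14 higher. Robo3 (-5.35 ± 0.25), Sema3e (-4.09 ± 0.22), Epha7 (-4.09 ± 0.16) and Epha4 (-3.02 ± 0.17), which steer axons, were higher in the hippocampus. Cbln1, a synapse organiser known from the cerebellum (4.71 ± 0.45), was higher in the hypothalamus.

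The insulin and IGF signalling genes bear on the response to the infusions that the study examined. Of 30 tested under saline, 1 was higher in the hypothalamus, 11 were lower and 18 were not called, which is 40% called against 39.2% of all genes. The interval of 8 lay inside 1.5-fold. Irs4 was the gene that was higher. Irs4, an insulin receptor substrate, stood at 151, 111, 182, 125 and 62.3 CPM in the hypothalamus and 0 to 1.37 CPM (median 0.0906) in the hippocampus (log2 fold change 8.35, SE 0.49, adjusted p = 8.31e-09). The insulin receptor Insr stood at 54.6 to 148 CPM against 69.0 to 129 CPM, with a 95% interval of -0.53 to 0.41 for the log2 fold change. Irs2 had an interval of -0.51 to 0.56, and the IGF-1 receptor Igf1r one of -0.64 to 0.34. The IGF-binding protein Igfbp4 was lower in the hypothalamus (-3.10 ± 0.18).

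Cholesterol synthesis and uptake genes were higher in the hypothalamus for 12, lower for 1 and not called for 10 of 23. Pmvk, phosphomevalonate kinase of the sterol pathway, was called (1.42 ± 0.33), and its highest values were in the 3 GC-leaning hypothalamic libraries. With those and GC-leaning hippocampal library 1 left out, the log2 fold change was 0.52 (adjusted p = 0.029), and the call was lost with the lean as a model term (1.00, adjusted p = 0.0502) and with the title run as a batch term (1.04, adjusted p = 0.0777). Among 23 genes of glycolysis and glucose transport, 3 were higher, 1 lower and 19 not called. Without the GC-leaning libraries 3 were higher and 3 lower. The insulin-dependent glucose transporter Slc2a4 was higher (2.25 ± 0.30). Gapdh had a 95% interval of -0.39 to 0.42. Among the unfolded protein response genes 9 were higher, 1 lower and 11 not called, with the chaperone Hspa5 (1.08 ± 0.13) and the sensor Atf6 (-1.88 ± 0.19) at the ends.

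Ribosomal protein genes were higher for 12 of 45 and the rest not called, with a median of 0.70, and the regions overlapped for all 45. Without the 4 GC-leaning libraries 0 were higher and 2 lower, with a median of -0.02, and with the lean as a covariate none was called (median 0.26). These libraries also leaned to short transcripts, hypothalamic library 5 the most (length correlation -0.51), so GC and length cannot be told apart here. None was called without hypothalamic library 5 alone, and 23 were without hippocampal library 1 alone. Of 31 nuclear respiratory chain genes, 1 was called, and their median moved from 0.20 to -0.31 without those libraries and to -0.08 without hypothalamic library 5 alone.

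Astrocyte genes were called in both directions. Of 20 genes (65% called), 10 were higher in the hypothalamus, 3 lower and 7 not called. Agt, angiotensinogen, which astrocytes of the ventral brain make, stood at 366, 420.2, 311, 309 and 618 CPM against 20.7 to 54.9 CPM (median 23.5) (log2 fold change 3.65, SE 0.29, adjusted p = 1.92e-07). Itih3, an inter-alpha-trypsin inhibitor chain, stood at 417 to 579 CPM against 21.4 to 39.0 CPM (4.14 ± 0.17). The glutamate transporter Slc1a2 (-1.38 ± 0.22) and Gfap (-0.73 ± 0.22) were lower. The sum of the 20 was 6448 to 7339 CPM against 5941 to 8155, so the regions overlapped in it. Of 16 myelin genes 2 were higher (Cnp and Trf, the latter not without hypothalamic library 5 or hippocampal library 2, 3 or 6), and the sum of the list was 4781 to 8704 CPM against 3076 to 5520.2. None of the 16 was called without the GC-leaning libraries, and 5 were without hypothalamic library 3 or hippocampal library 1. Of 14 microglial genes 4 were lower (7 without the GC-leaning libraries, 1 with the title run as a batch term), P2ry12 the most (-1.11 ± 0.24), and of 14 endothelial genes 1 was called (Pltp, 1.10 ± 0.35), a call lost without hypothalamic library 1 or 2 or hippocampal library 5.

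Markers of neighbouring tissue varied between libraries. The summed level of the 18 choroid plexus genes ranged from 256 to 409 CPM in the hypothalamus. In hippocampal libraries 1 to 6 it was 433, 294, 283, 1875, 375 and 3293 CPM, and 2 of the 6 stood far above the rest. Enpp2, autotaxin, made up the largest share in both (1186 and 1695 CPM). Ttr, transthyretin of the choroid plexus, ranged over 16.9 to 1228 CPM in the hippocampus and 3.14 to 27.0 CPM in the hypothalamus (log2 fold change -5.05, SE 1.25, adjusted p = 0.0055). The Ttr call was lost without the GC-leaning libraries (-6.70, adjusted p = 0.191) and with the lean as a model term (-4.68, adjusted p = 0.0796). Without those libraries the difference was larger, in a fit of fewer libraries. The Ttr call also ended without the 3 hippocampal libraries above 100 CPM of Ttr (-1.21, adjusted p = 0.146), which were picked by Ttr itself. In that fit 4422 genes were called and 1396 were past 2-fold. The 17 thalamic and habenular genes summed to 796 to 1496 CPM in the hypothalamus and to 236 to 889 in the hippocampus, where library 6 was the highest. They include Slc17a6, which hypothalamic neurons use, and Zic1, which is also on the list of hypothalamic transcription factors. The sum is therefore not a measure of thalamic tissue alone. Pituitary genes were low everywhere, at most 39.7 CPM in sum in hypothalamic library 3 and 21.1 in hippocampal library 4. The pituitary and thalamic part in the regional differences was not tested.

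**Figure D4:**
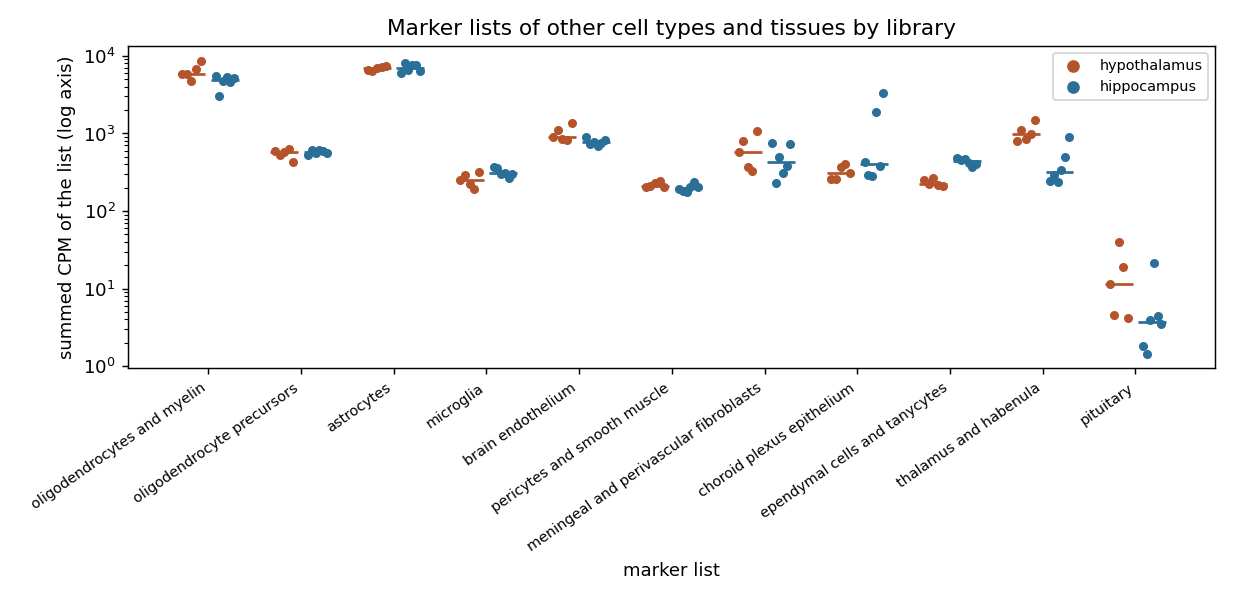
Summed CPM on a log axis of 11 marker lists in each saline library, hypothalamus in orange (5 points a list) and hippocampus in blue (6 points), with bars at the medians. The choroid plexus sum reaches 3293 CPM in hippocampal library 6, and the thalamus and habenula sums of the regions overlap only through that library, at 889 CPM.

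The regional difference recurred in libraries from insulin-infused mice, which the saline comparison does not use. At the low rate 5026 of 13609 genes (36.9%) were called, and at the high rate 5413 of 13887 (39%). Of the 1403 genes past 2-fold under saline, 1323 could be tested at the low rate, where 1317 had the same direction and 1260 (95.2%) were called in it. At the high rate 1369 could be tested, 1368 had the same direction and 1337 (97.7%) were called in it. No gene past 2-fold was called in the opposite direction. Of all 5323 genes called under saline, 3246 of 5185 (62.6%) were called in the same direction at the low rate and 3828 of 5264 (72.7%) at the high rate, and 4 and 0 in the opposite one. Of all genes tested under saline and at the rate in question, 34.3% were called in the same direction at the low rate and 38.3% at the high rate.

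**Figure D5:**
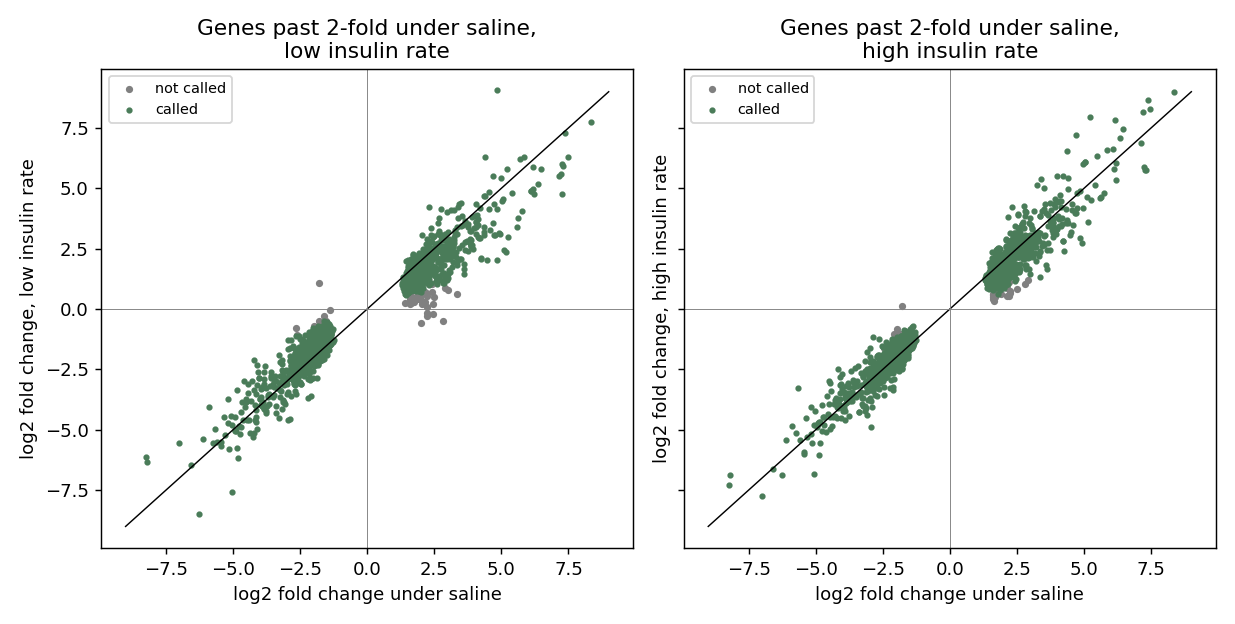
Log2 fold change of the genes past 2-fold under saline, plotted against that at the low insulin rate (left) and the high rate (right), green where called in the same direction and grey where not. The line marks equal values, and genes with 3 or fewer counts in a saline region are left out. Shares called in the same direction were 95.2% of 1323 genes tested at the low rate and 97.7% of 1369 at the high rate. These shares include the genes left out of the plot for few counts. Genes past 2-fold under saline that could not be tested at a rate are not in its share.

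Several peptide genes could not be followed at the insulin rates. Avp was below 1 CPM in 3 of 6 low-rate and 1 of 5 high-rate libraries, and in none of the 5 saline ones. Hcrt, Avp, Oxt, Pomc and Agrp did not pass the count filter at either rate. Pmch was detected in every hypothalamic library but ranged from 41.9 to 1083 CPM at the low rate and from 1.91 to 786 at the high rate. In the saline libraries its range was 290.2 to 746 CPM on the same scale. Neurod6 stood between 105 and 185 CPM in the low-rate hippocampus and between 106 and 155 at the high rate.

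Whether the regional difference depended on the infusion was tested directly in 1 model of the 34 libraries of both regions. Jointly over both rates 0 of 14728 genes (0%) passed in edgeR, with 1704 (11.6%) at an unadjusted p below 0.05. For the low rate against saline 1 gene (0.00679%) passed, with 3237 (22.0%) at an unadjusted p below 0.05. For the high rate 0 passed, with 1057 (7.18%). The lack of calls does not show that the regional difference was the same at each rate. The gene that passed at the low rate was Bhlhe22. Its hypothalamic level was 2.89 to 4.24 CPM under saline, 5.08 to 10.2 at the low rate and 4.12 to 11.8 at the high rate. In the hippocampus it was 109 to 145, 76.8 to 101 and 88.1 to 115 CPM. The difference remained large at each rate, and it was smaller at the low rate than under saline by 1.48 on the log2 scale (adjusted p = 0.0403). That call was lost in 21 of the 34 fits that left out 1 library, in the fit of all 52 libraries (adjusted p = 0.209) and in that with a batch term for the title range (0.0903). Without the 5 insulin-group hypothalamic libraries in which a peptide gene fell below 1 CPM, it was kept (adjusted p = 0.0436). Over all alternatives the edgeR adjusted p ran from 0.000498 to 0.209.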

How the data were processed

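RNA was sequenced from mouse hypothalamus and hippocampus with a directional kit, paired-end, per the labels' protocols. The authors deposited 1 table of raw counts per Ensembl gene, made with STAR and featureCounts on GRCm38.p4, per the submitters' processing notes. Which strand setting and which annotation were used is not given in the sources at hand, so counts of overlapping or antisense genes and of near-identical copies are uncertain. Total counts of 2453412 to 7144772 per library limit the precision of low genes, and counting intervals (exact, 95%) and bounds cover counting error only.

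Genes were filtered with filterByExpr, scaled by TMM and tested with edgeR 4.0.16 (robust quasi-likelihood F-test, R 4.3.3) on the 11 saline libraries with Benjamini-Hochberg adjustment over all 13580 genes, and with glmTreat against a 2-fold difference. The same fit was made within each insulin rate, and the interaction in 34 libraries. On simulated data with 13416 genes, 60.0% of true log2 changes of 1 and 96.9% of those of 2 were called, and 3.73% of calls were false. There, few genes were changed and counts were drawn independently, without GC or length lean or batch. These shares need not hold for the real libraries. The lean of a library to GC-rich transcripts is the Spearman correlation across genes of its deviation from its region's mean with transcript GC, taken from GENCODE transcripts, with 0.4 as the threshold. The length correlation was taken in the same way with exon length, and is negative where short transcripts are high.

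The members and gene lists were chosen with earlier results of these data known, so lists are described by counts and medians without a test. Named genes are the 3 markers, the 15 largest called, non-overlapping genes in each direction with at least 10 CPM in the higher region, per list the 3 most abundant members and the 2 called members with the largest difference, and the 5 of smallest adjusted p per interaction, of which those that add to the text are given, and some are not reported here. Further list members with well-known roles, such as Pomc, Agrp, Npy, Mc4r, Insr, Gad1 and Fos, were chosen after their values were seen. Promoter sequences come from RefSeq on GRCm38.p6, and gene positions from GENCODE M21 on the same build. No library repeated another among the 25 pairs within a group. Alternatives used DESeq2 1.42.0, limma 3.58.1 (voom), other scalings, filters, batch terms, a GC covariate and subsets of libraries. The exclusions by Ttr and by low peptide levels were chosen after seeing the data.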

Additional observations from a re-analysis of the deposited data

Results flagged for a closer look

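In each region, the highest or lowest library of every gene named here with a mean of at least 1 CPM, and of each marker sum, was compared with the nearest of the others by Dixon's test at the 95% level. Of 348 such sets of libraries 32 had a library that stood apart, where chance gives about 1 in 20. Most of these sets were hippocampal.

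Hippocampal library 1 was high for Gapdh at 927 CPM (nearest 613), Hspa5 at 251 CPM (nearest 199.7), Neurod2 at 453 CPM (nearest 339.7) and Slc17a7 at 1851 CPM (nearest 1019). It was also high for Slc32a1 at 94.0 CPM (nearest 46.7). It was low for Drd1 at 6.03 CPM (nearest 7.84). Hippocampal library 2 was high for Calb1 at 220.2 CPM (nearest 158), Cnr1 at 612 CPM (nearest 412), mt-Atp6 at 68.7 CPM (nearest 20.2) and Zbtb20 at 1271 CPM (nearest 771). It was also high for the summed hippocampal and cortical transcription factors at 7533 CPM (nearest 5767) and the summed neocortical layer markers at 700.2 CPM (nearest 598). It was low for Cnp at 123 CPM (nearest 209) and the summed oligodendrocytes and myelin at 3076 CPM (nearest 4645). Hippocampal library 4 was high for Esr1 at 5.20 CPM (nearest 3.51) and the summed pituitary at 21.1 CPM (nearest 4.46). Hippocampal library 6 was high for Adcyap1 at 6.64 CPM (nearest 2.11), Calb2 at 68.9 CPM (nearest 29.3), Cbln1 at 11.3 CPM (nearest 4.22) and Kcna5 at 3.51 CPM (nearest 1.64). It was also high for Tac2 at 19.9 CPM (nearest 4.22), Tcf7l2 at 82.0 CPM (nearest 33.8), Ttr at 1228 CPM (nearest 411) and Zic1 at 137 CPM (nearest 52.6). Hypothalamic library 2 was low for Neurod2 at 0.787 CPM (nearest 1.15). Hypothalamic library 4 was low for Rxrg at 12.1 CPM (nearest 19.7). Hypothalamic library 5 was high for Glra1 at 29.5 CPM (nearest 11.7), Penk at 214 CPM (nearest 124), Rspo1 at 21.8 CPM (nearest 16.0) and Ttr at 27.0 CPM (nearest 6.82). It was low for Irs2 at 20.1 CPM (nearest 55.4) and Nptx1 at 109 CPM (nearest 189).

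The regional difference of Bhlhe22 at the low insulin rate differed from that under saline by 1.48 on the log2 scale in a direct test of the interaction (edgeR, adjusted p = 0.0403), and leaving out 1 library ended the call in 21 of 34 fits, with adjusted p between 0.0526 and 0.18 where it was lost.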

How the results depend on the processing

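Against 5323 genes called under saline, other tools, scalings, filters, thresholds and covariates gave 3704 (adjusted p 0.01) to 6891 (all 52 libraries in 1 fit), with 5604 by DESeq2 and 5380 by limma-voom. Within the highest range of title numbers, with fewer libraries, 2747 were called and 878 were past 2-fold. A 2-fold bound in place of 1.5-fold held 7678 genes. Leaving out 1 library gave 4644 to 5750 called genes and 1289 to 1472 past 2-fold under saline, 4448 to 5527 at the low rate and 4781 to 6142 at the high rate. For the interaction, leaving out 1 library gave 0 to 1 genes jointly (1 without hypothalamic high-rate library 5), 0 to 16 at the low rate and 0 to 0 at the high rate. The low-rate count was 16 without hippocampal low-rate library 3, 14 without library 4 of that group, 10 without hippocampal saline library 6 and 9 without hypothalamic saline library 4. It was 0 with all 52 libraries in the fit and 0 with the title range as a batch term, and the cause was not tested. Of the named genes, 44 had log2 fold changes on both sides of 0 over the alternatives, Insr, Irs2, Gad1, Sst and Zic1 among them, and 0 of these were called under saline. Of the 44, the microglial gene Ctss was called with its sign turned (-0.54 without the GC-leaning libraries, from 0.08). Without the 4 GC-leaning libraries, calls ended for 19 of the 214 called genes that the naming rule or the text covers, without the 3 hippocampal libraries rich in Ttr for 12, with the GC covariate for 16, with the title run as a batch term for 15 and within the highest title range for 37. Cck, Cnr1, Gfap, Htr2c, Id4, Notch3, P2ry12, Dlx1, Mc4r and Tnr were among the 37, and the Npy call was lost within the lowest range. The cause was not tested, and calls can also end because a fit holds fewer libraries. Without the GC-leaning ones, hypothalamic libraries 3 and 4 stood against hippocampal libraries 2 to 6. Medians that turned include GABA receptor subunits (0.06 with the GC covariate), glycolysis (-0.04 with it) and adhesion (0.04 without the GC-leaning libraries). Scaling by library totals turned the median of glutamate transporters to 0.15 and called 8 myelin and 22 ribosomal genes. No paired analysis was possible because the labels number no replicates, and the numbers used here follow accession order. The nearest fit, with the run of title numbers as a batch term, called 3797 genes. Depth limits the peptide, receptor and factor genes near 0 in 1 region, whose folds are bounds or carry wide intervals.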

Other observations

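Genes of ependymal cells, which line the ventricles, and of tanycytes, which line the floor of the third ventricle, went both ways, with 5 of 12 tested higher in the hypothalamus and 5 lower. Gpr50, an orphan receptor of tanycytes and the dorsomedial hypothalamus, stood at 14.9 to 30.8 CPM in the hypothalamus and 0 to 0.781 CPM in the hippocampus (log2 fold change 6.20 ± 0.42). Foxj1, the factor of ciliated cells, was higher as well (1.55 ± 0.36), but not called without the GC-leaning libraries (1.10, adjusted p = 0.134). Crym, a thyroid hormone-binding protein, and Dio2, the enzyme that activates thyroid hormone, are used as tanycyte markers in the hypothalamus, yet both were lower there (5.23 to 9.13 CPM against 78.6 to 167 CPM, and 14.0 to 38.2 CPM against 90.7 to 156 CPM), with no overlap. Crym is also on the list of pyramidal neuron genes, and the member Lhx2 is also on those of cortical factors and astrocytes. The levels of such genes are not those of tanycytes alone. Of the listed genes 7, the tanycyte factor Rax among them, were too low to test. Of 14 thyroid and retinoid genes, 7 were lower in the hypothalamus and none higher, with Cyp26b1, which degrades retinoic acid, at -2.85 ± 0.29. Without the 3 hippocampal libraries above 100 CPM of Ttr, 17 ependymal and tanycyte genes could be tested, of which 9 were higher and 4 lower. The median was -0.23 over the 12 and 2.23 over the 17, which are not the same members. It was also above 0 without hypothalamic library 1 (0.04, 14 tested), library 3 (0.14, 14 tested) or library 4 (1.62, 17 tested).

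Several genes used as markers of other forebrain regions were higher in the hypothalamus. Of 13 striatal projection neuron genes tested, 7 were higher, 3 lower and 3 not called. Among all genes 20.2% were higher and 19% lower. The dopamine receptor Drd2 was at 3.25 ± 0.30 and Rgs9 at 1.75 ± 0.16, whereas Drd1 was not called (0.02 ± 0.20). Of 14 neocortical layer genes, 7 were higher and 4 lower, with Foxp2, a factor of deep-layer neurons, at 2.80 ± 0.47 and the Wnt agonist Rspo1 at 4.26 ± 0.28. Core circadian clock genes were lower for 8, higher for 2 and not called for 9 of 19, where 19% of all genes were lower. Bhlhe40 was at -1.46 ± 0.12 and Hlf at -1.35 ± 0.24, and Per1 was not called (-0.00 ± 0.15). Glucocorticoid-responsive genes were higher for 4 and lower for 3 of 18, which is 38.9% called against 39.2% of all genes, with Klf9 lower (-1.08 ± 0.13) and Tsc22d3 higher (0.91 ± 0.20). Their median was 0.38, but -0.17 with the GC covariate and -0.12 without the GC-leaning libraries. In the Wnt and BMP list 8 of 28 were higher and 8 lower, with Fzd5 at 2.98 ± 0.34 and Wnt2 at -3.43 ± 0.19. Of 7 metabotropic glutamate receptors, Grm8 (1.97 ± 0.26) and Grm4 (1.75 ± 0.26) were higher and Grm2 (-2.49 ± 0.19) and Grm5 (-1.31 ± 0.23) lower.

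Of 15 housekeeping genes used as references, 11 were not called. Among the others, Actb was lower in the hypothalamus (-1.18 ± 0.20) and so was Ywhaz (-0.82 ± 0.12), while Gusb was higher (0.71 ± 0.18), but not called without the GC-leaning libraries (0.43, adjusted p = 0.158). Of 11 mitochondrially encoded genes tested, mt-Atp6 was lower (-1.84 ± 0.53) and 10 were not called. The mt-Atp6 call was lost without the GC-leaning libraries (-2.56, adjusted p = 0.158), with the GC covariate (-1.45, adjusted p = 0.135) and with the title range as a batch term (-1.29, adjusted p = 0.098). Without the GC-leaning libraries the difference was larger, in a fit of fewer libraries. Reads of these genes can be shared with nuclear copies. Among oligodendrocyte precursor genes 2 were higher and 1 lower (Tnr) of 11, and the 2 higher calls were lost without hypothalamic library 1 or hippocampal library 3 or 5. Among 10 pericyte genes 1 was higher (Notch3), among 9 fibroblast genes 1 was higher (Col1a2, not without the GC-leaning libraries) and 1 lower (Igf2), and none of 5 blood cell genes was called.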
